A study of Mus musculus with 6 samples.

Results

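The genes described here are the 3 eIF4E-binding proteins (Eif4ebp1, Eif4ebp2 and Eif4ebp3), their target Eif4e, and 5 inhibitors of the mTORC1 kinase complex (Sesn1, Sesn2, Sesn3, Ddit4 and Deptor), measured in mouse liver by RNA sequencing. They were taken by symbol, and all 9 of the 9 listed symbols were found among the 23291 genes of each deposited file. The list was chosen by earlier results of the same comparison, the FPKM differences between dabigatran and diet libraries and above all the high Eif4ebp3 values, so differences of these 9 genes between the groups are given as a description and not as a test. The dabigatran group were C57BL/6 mice kept for 3 months on a Western, high fat diet with dabigatran etexilate mixed in at 10 mg per gram. The diet group were C57BL/6 mice on the Western diet alone for the same time, so all animals share strain and diet. Dabigatran etexilate is the oral prodrug of dabigatran, a direct thrombin inhibitor. The design text names 3 mice per group, and the labels give no age, sex or chow-fed group. Every one of the 23291 values was the same in the files of dabigatran replicates 0 and 1, which count as 1 library, called dabigatran replicate 1, which leaves n = 2 dabigatran and n = 3 diet libraries.

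Translation of most messages starts when eIF4E binds the cap at the end of the message and recruits the scaffold eIF4G. The 4E-BP proteins compete with eIF4G for eIF4E, and phosphorylation by mTORC1 releases them. Sestrins restrain mTORC1 when amino acids are scarce, the Ddit4 product (REDD1) restrains it through the TSC complex, and Deptor binds the mTOR kinase itself. The liver uses this pathway to match protein synthesis to feeding. The data are messenger RNA levels, and neither protein amounts nor phosphorylation were measured.

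Values are FPKM, a fragment number scaled to gene length and a measure of library size, which allows levels of different genes to be compared. How the libraries were scaled to each other is not stated. Relative to diet replicate 0, the scaling factor of a library was between 0.761 and 1.0. It was read from the steps of low FPKM values and stands in for sequencing depth. The libraries of a group were not tightly alike: along the leading principal component (49.2% of the variance of the 10247 tested genes), dabigatran replicates 1 and 2 lay at 15.8 and 48.7, and diet replicates 0, 1 and 2 at -29.5, -6.16 and -28.8. Diet replicate 1 therefore stands apart from the other diet libraries, and dabigatran replicate 2 lies farthest from the diet group. The 6 hepatocyte markers were present in every library, with summed levels of 30840 and 43676 FPKM in the dabigatran libraries and 28125 to 30681 FPKM in the diet libraries.

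All 9 genes passed the filter for testing, a level of 1 FPKM or more in 3 or more of the 5 libraries. Ddit4 did so with exactly 3 libraries, the dabigatran pair and diet replicate 2. In the fit across all genes (limma, Benjamini-Hochberg adjusted p under 0.05) 1 of the 9 genes was called, Eif4ebp3, where 0.429% of all tested genes were called in either direction. The groups did not overlap for 5 of the 9, with Eif4ebp3, Ddit4, Sesn1 and Eif4e higher and Eif4ebp2 lower in both dabigatran libraries, where 34.4% of all tested genes had groups that did not overlap. Since these genes were picked with this contrast known, nothing is read from either count. The median log2 difference of the 9 genes was 0.06, and that of all tested genes 0.02. Log2 differences are dabigatran minus diet, on log2(FPKM + 0.5), a scale that understates the change of low genes.

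**Figure D1:**
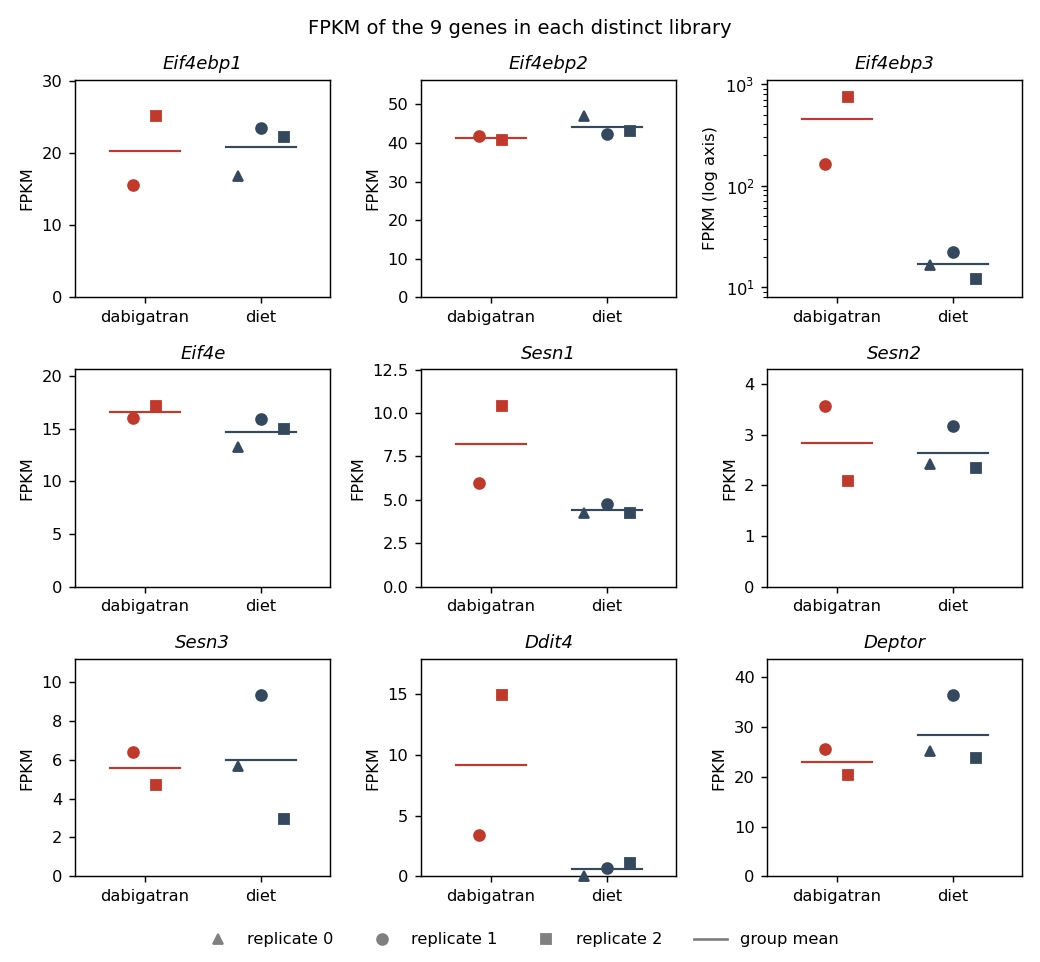
FPKM (vertical axes, linear from 0 except the log axis for Eif4ebp3) of each of the 9 genes in the dabigatran and diet libraries; each point is 1 library, its shape gives the replicate number and the line is the group mean. Eif4ebp3, Ddit4 and Sesn1 are higher in both dabigatran libraries than in any diet library, with dabigatran replicate 2 the highest of all.

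Eif4ebp3 had the largest difference of the 9 genes. It encodes 4E-BP3, the least studied of the 3 eIF4E-binding repressors. Its level was 163 and 738 FPKM in dabigatran replicates 1 and 2, against 16.8, 22.0 and 12.1 FPKM in diet replicates 0, 1 and 2. Even the lower dabigatran library exceeded the highest diet library 7.41-fold, and the dabigatran libraries themselves differed 4.52-fold. The group means were 450.4 ± 406 FPKM (SD, n = 2) with dabigatran and 17.0 ± 4.94 FPKM (SD, n = 3) on the diet, and the fitted log2 difference was 4.35 ± 0.55 (SE). The size of the difference depended on the dabigatran libraries: it was 3.27 without dabigatran replicate 2 and 5.44 without dabigatran replicate 1. Leaving out diet replicate 0, 1 or 2 gave 4.37, 4.56 and 4.14. The call was lost without dabigatran replicate 2, which leaves 1 dabigatran library, and without diet replicate 0 or diet replicate 2, and at an unchanged 4.35 without the filter on low values or without a variance trend.

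Read from the steps of the FPKM values, the Eif4ebp3 levels rest on 167 and 680 fragments in the dabigatran libraries and on 20, 20 and 14 fragments in the diet libraries. These are the smallest whole numbers that fit, and they cover counting error alone. The gene lies on chromosome 18 (36664060 to 36665917, plus strand, GRCm38) and is 5146 bases downstream of Ankhd1, a gene for a large ankyrin-repeat protein on the same strand. A separate annotated gene, AC115631.1, joins exons of the pair, and 65.5% of the 50-base windows of the Eif4ebp3 transcript also occur in it, so the fragments cannot be fully assigned. Ankhd1 itself, of whose windows 17.0% are shared, had 4.70 and 6.74 FPKM in the dabigatran libraries and 4.77, 4.78 and 3.86 FPKM in the diet libraries. Its groups overlapped, and its log2 difference was 0.31 ± 0.25 (SE), against 4.35 for its neighbour. The source of the fragments shared with AC115631.1 was not tested.

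The other 4E-BP genes did not share this pattern. Eif4ebp1, the best studied member and the one most used as a readout of mTORC1, had 15.5 and 25.2 FPKM in dabigatran replicates 1 and 2, against 16.9, 23.5 and 22.2 FPKM in diet replicates 0, 1 and 2. The dabigatran libraries were its lowest and highest values, so the groups overlapped fully, and the log2 difference was -0.06 ± 0.26 (SE). Eif4ebp2, the main 4E-BP of the brain, had 41.7 and 40.8 FPKM with dabigatran and 47.0, 42.4 and 43.2 FPKM on the diet. Both dabigatran values lay just under the lowest diet value, with means of 41.3 ± 0.649 FPKM (SD, n = 2) and 44.2 ± 2.48 FPKM (SD, n = 3); the fitted log2 difference, -0.10 ± 0.16 (SE), was smaller than its own error. Eif4ebp2 was among the steadier genes of the diet group: 8.33% of tested genes varied less between the diet libraries.

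As listed, the make-up of the 4E-BP family differed between the groups; these sums, shares and ratios count every fragment given to Eif4ebp3, including any from AC115631.1. Eif4ebp3 made up 74.0% and 91.8% of the summed 4E-BP FPKM in dabigatran replicates 1 and 2, and 20.8%, 25.0% and 15.6% in diet replicates 0, 1 and 2. Eif4ebp2 was the most abundant of all 9 genes in each diet library and Eif4ebp3 in each dabigatran library. The 3 genes together came to 220 and 804 FPKM in the dabigatran libraries and to 80.7, 87.9 and 77.5 FPKM in the diet libraries. Without Eif4ebp3 the sum was 57.2 and 66.0 FPKM with dabigatran and 63.9, 65.9 and 65.4 FPKM on the diet, with overlapping groups.

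**Figure D2:**
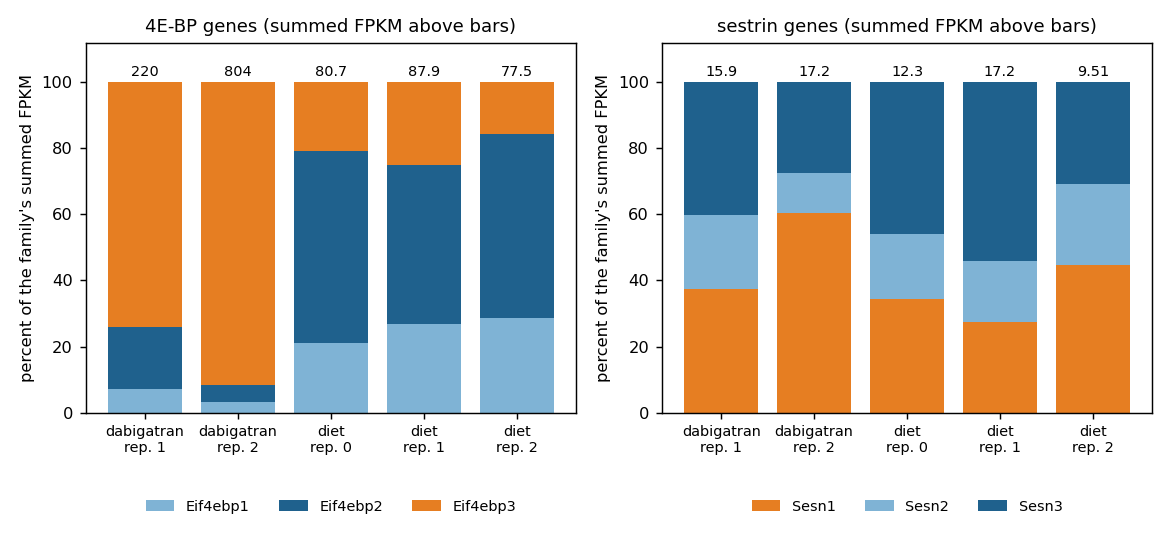
Share of each gene in the summed FPKM of the 4E-BP genes (left) and of the sestrin genes (right), in percent, for the dabigatran and diet libraries; the number above each bar is the summed FPKM. Eif4ebp3 fills 74.0% and 91.8% of the 4E-BP bars of the dabigatran libraries and at most 25.0% of those of the diet libraries.

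Eif4e, the cap-binding protein that the 4E-BP family holds back, was close between the groups. Its level was 16.0 and 17.2 FPKM in the dabigatran libraries, against 13.3, 15.9 and 15.0 FPKM in the diet libraries. The lower dabigatran value exceeded the highest diet value 1.01-fold, and the log2 difference was 0.17 ± 0.19 (SE). Some fragments may belong elsewhere, since 6.02% of its 50-base windows occur in other genes. Per unit of Eif4e, the summed 4E-BP message was 13.8 and 46.7 in the dabigatran libraries and 6.07, 5.53 and 5.19 in the diet libraries. Without Eif4ebp3 the same ratio was 3.58 and 3.84 with dabigatran and 4.81, 4.15 and 4.37 on the diet.

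Ddit4 had the second largest difference. It encodes REDD1, which is induced by hypoxia, glucocorticoids, fasting and other stresses. It had 3.43 and 14.9 FPKM in dabigatran replicates 1 and 2, was listed at 0 in diet replicate 0 and had 0.702 and 1.11 FPKM in diet replicates 1 and 2. Both dabigatran libraries lay above all diet libraries, the lower one 3.10-fold above the highest diet value. These levels rest on 11 and 43 fragments with dabigatran and on 0, 2 and 4 on the diet, so the diet level is poorly determined, and a listed 0 may stand for an estimate that failed. The log2 difference was 2.98 ± 0.66 (SE). With a pseudocount of 0.1 or 1 in place of 0.5 it was 3.99 and 2.45, and without dabigatran replicate 2 it was 1.99. Without dabigatran replicate 1 it was 3.96; either way 1 dabigatran library was left. Leaving out diet replicate 0, the library with the listed 0, gave 2.48. Leaving out diet replicate 1 or 2 gave 3.12 and 3.33. Ddit4 was not called in the fit across all genes. The gene lies on chromosome 10 (59949669 to 59951834, minus strand, GRCm38), and 0 of its 1706 windows occur in another gene.

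Sesn1, the sestrin known as a target of p53 and FOXO factors, had the third largest difference. It had 5.95 and 10.4 FPKM in dabigatran replicates 1 and 2, against 4.27, 4.74 and 4.24 FPKM in diet replicates 0, 1 and 2. The diet libraries were close together, and 8.76% of tested genes varied less among them. The lower dabigatran value exceeded the highest diet value 1.26-fold. The group means were 8.19 ± 3.16 FPKM (SD, n = 2) and 4.42 ± 0.282 FPKM (SD, n = 3). Their fitted log2 difference, 0.77 ± 0.27 (SE), was 0.39 without dabigatran replicate 2 and 1.15 without dabigatran replicate 1. Sesn1 was not called in the fit.

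The other sestrins overlapped between the groups. Sesn2, a leucine sensor and a known ATF4 target, had 3.57 and 2.09 FPKM in the dabigatran libraries and 2.42, 3.18 and 2.33 FPKM in the diet libraries. Its dabigatran libraries were again the highest and the lowest value, on 19 and 10 fragments, and the log2 difference was 0.06 ± 0.31 (SE). Sesn3, a FOXO target in liver, had 6.37 and 4.72 FPKM with dabigatran, against 5.67, 9.30 and 2.93 FPKM on the diet. It varied widely among the diet mice, 3.18-fold from lowest to highest, more than 96.0% of tested genes on the log2 scale, and its log2 difference was 0.02 ± 0.41 (SE). The summed sestrin message was 15.9 and 17.2 FPKM in the dabigatran libraries and 12.3, 17.2 and 9.51 FPKM in the diet libraries, and the groups overlapped. Within that sum Sesn1 made up 37.4% and 60.5% with dabigatran and 34.5%, 27.5% and 44.6% on the diet.

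Deptor, the inhibitor that is part of the mTOR complexes, had 25.7 and 20.5 FPKM in the dabigatran libraries and 25.2, 36.4 and 23.8 FPKM in the diet libraries. The means were 23.1 ± 3.66 FPKM (SD, n = 2) with dabigatran and 28.5 ± 6.92 FPKM (SD, n = 3) on the diet, where diet replicate 1 was the highest of all libraries. The log2 difference was -0.28 ± 0.24 (SE), and -0.09 when diet replicate 1 was left out. Its exons overlap Gm9920 on the other strand, and 3.78% of its windows occur in other genes.

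**Figure D3:**
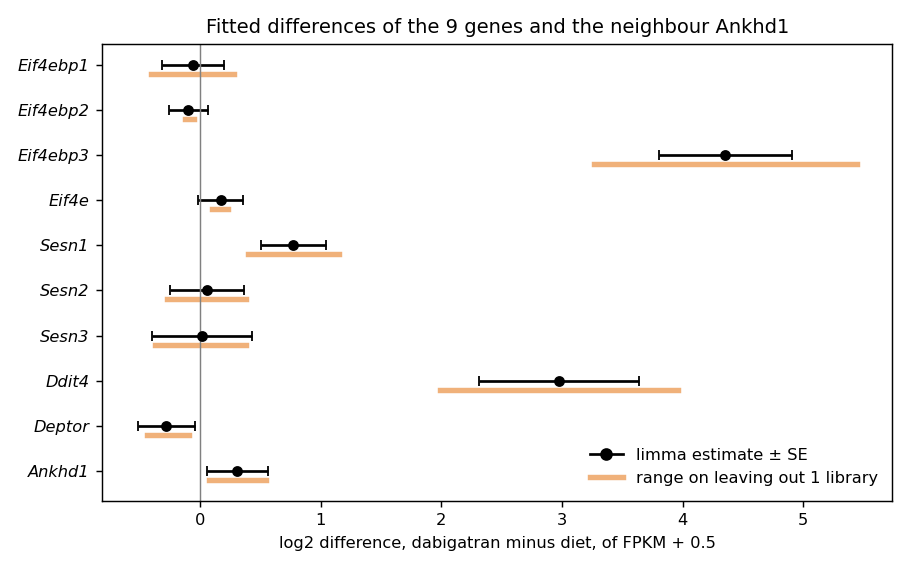
Fitted log2 difference, dabigatran minus diet, of FPKM + 0.5 (horizontal axis) for the 9 genes and Ankhd1; points are limma estimates with their SE and orange bars span the values on leaving out 1 library in turn. Eif4ebp3 (4.35), Ddit4 (2.98) and Sesn1 (0.77) lie to the right of 0 with their whole bar, as do the smaller differences of Eif4e and Ankhd1, and the bars of Eif4ebp1, Sesn2 and Sesn3 cross 0.

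By mean level, the order in the diet group was Eif4ebp2, Deptor, Eif4ebp1, Eif4ebp3, Eif4e, Sesn3, Sesn1, Sesn2 and Ddit4. Across the diet libraries the ranges of Eif4ebp1 and Eif4ebp3, of Eif4ebp3 and Eif4e and of Sesn3 and Sesn1 overlapped. The other neighbours had ranges apart, Deptor and Eif4ebp1 barely so (lowest Deptor value 23.8 FPKM, highest Eif4ebp1 value 23.5 FPKM). Within each diet library Eif4ebp1 still ranked above Eif4ebp3, at rank 3 against ranks 4, 4 and 5 in diet replicates 0, 1 and 2. Eif4ebp3 and Eif4e changed order in diet replicate 2, as did Sesn3 and Sesn1. In dabigatran replicate 2 Ddit4 stood at rank 6 of the 9 genes, above the 3 lowest-ranked genes Sesn1, Sesn3 and Sesn2, whereas it was at rank 9 in dabigatran replicate 1 and in every diet library.

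The genes whose pattern over the 5 libraries was closest to Eif4ebp3, by root mean square distance of centred log2 values, were Cyp2c40 (0.56), Cyp17a1 (0.76), Scara5 (0.90), Fkbp5 (0.91) and Ddit4 (0.96). Ddit4, a member of the same list, was thus the fifth closest of the 10246 other tested genes, and Sesn1 stood at rank 281 with a distance of 1.82. Cyp2c40, a cytochrome P450 gene, had 4.05 and 39.8 FPKM in the dabigatran libraries, against 0.496, 1.30 and 0.513 FPKM in the diet libraries. Cyp17a1, a steroid hydroxylase gene, had 24.0 and 47.9 FPKM with dabigatran and 1.93, 5.08 and 3.25 FPKM on the diet. Scara5, a scavenger receptor gene, had 2.95 and 20.2 FPKM with dabigatran and 0.880, 1.16 and 0.796 FPKM on the diet. Fkbp5, a co-chaperone of steroid receptors, had 15.2 and 99.1 FPKM with dabigatran and 3.71, 9.27 and 5.57 FPKM on the diet. All 5 had their highest value in dabigatran replicate 2 and their second highest in dabigatran replicate 1. With 5 libraries this order is a description, and it was chosen from the same values that it describes.

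**Figure D4:**
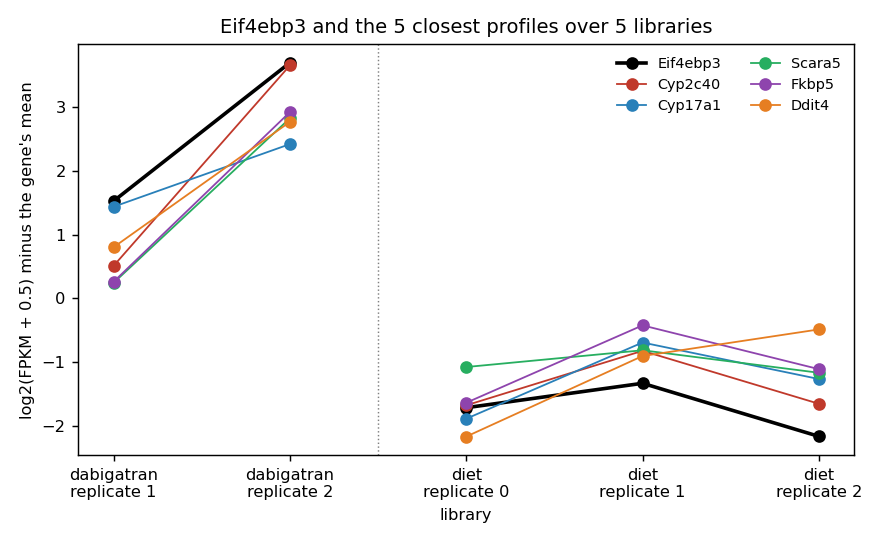
Log2(FPKM + 0.5) minus the mean of each gene (vertical axis) in the 2 dabigatran and 3 diet libraries, for Eif4ebp3 (black) and the 5 genes at the smallest distance. All 6 genes peak in dabigatran replicate 2; the 5 others lie lower than Eif4ebp3 in both dabigatran libraries.

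The promoters of Ddit4 and Sesn1, the genes with the largest log2 differences among those with a sequence at hand, are shown with those of Sesn2, Sesn3 and Eif4ebp2, whose log2 differences were between -0.10 and 0.06. Each is given 5′ to 3′ on the strand of the gene, as the stretch before the RefSeq start that lies outside exons annotated for the gene, and capitals mark CCAAT in either orientation (ATTGG on the other strand).
Ddit4, chr10:59951835-59952020, minus strand: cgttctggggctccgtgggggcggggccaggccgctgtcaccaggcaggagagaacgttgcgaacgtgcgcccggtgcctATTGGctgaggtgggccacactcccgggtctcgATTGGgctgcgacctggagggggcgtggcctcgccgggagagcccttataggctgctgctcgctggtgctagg
Sesn1, chr10:41887189-41887438, plus strand: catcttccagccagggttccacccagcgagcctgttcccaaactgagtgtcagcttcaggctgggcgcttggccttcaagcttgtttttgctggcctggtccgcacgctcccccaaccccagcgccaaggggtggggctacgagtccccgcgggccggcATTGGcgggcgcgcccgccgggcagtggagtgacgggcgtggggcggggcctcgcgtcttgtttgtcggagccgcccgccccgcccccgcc
Sesn2, chr4:132510502-132510706, minus strand: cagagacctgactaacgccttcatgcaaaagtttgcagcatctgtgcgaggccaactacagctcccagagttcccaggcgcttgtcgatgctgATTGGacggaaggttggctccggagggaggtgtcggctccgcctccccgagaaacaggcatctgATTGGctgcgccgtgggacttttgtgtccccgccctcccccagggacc
Sesn3, chr9:14276051-14276300, plus strand: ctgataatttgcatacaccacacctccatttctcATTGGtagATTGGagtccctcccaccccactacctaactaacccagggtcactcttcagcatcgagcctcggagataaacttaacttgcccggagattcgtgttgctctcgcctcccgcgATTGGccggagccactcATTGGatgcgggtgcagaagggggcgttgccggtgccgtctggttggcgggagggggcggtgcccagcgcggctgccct
Eif4ebp2, chr10:61452670-61452919, minus strand: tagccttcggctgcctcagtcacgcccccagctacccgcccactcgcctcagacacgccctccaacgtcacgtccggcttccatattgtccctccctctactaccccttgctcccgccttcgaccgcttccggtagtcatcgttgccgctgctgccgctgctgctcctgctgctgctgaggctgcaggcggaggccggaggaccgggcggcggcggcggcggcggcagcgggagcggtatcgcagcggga
The sequences are from RefSeq on GRCm38.p6. Windows of 250 bases before the start were held for 6 of the 9 genes (8 windows: Ddit4, Sesn2, Sesn3, Eif4ebp2, and a pair each for Sesn1 and Eif4e), and Eif4ebp1, Eif4ebp3 and Deptor had none. On either strand, CCAAT was found in 6 of the 8 windows and 5 of the 6 genes (all but Eif4ebp2), where 33.9% of the 32851 mouse windows hold it. These 5 genes were Ddit4, Eif4e, Sesn1, Sesn2 and Sesn3. A link between the motif and the group differences was not tested. The E-box CACGTG, bound by TFEB and TFE3 among others, was found in 1 window, of Eif4e, where 6.02% of all windows hold it. That Eif4e window and 1 of the Sesn1 windows, both counted with CCAAT, begin inside an exon annotated for their gene. The ATF4 element TGATGNAA, the FOXO site TGTTTAC and the TATA box TATAAA were found in 0 of the 8 windows, where 3.45%, 3.17% and 12.4% of all windows hold them. No 2 of these motifs contain one another, and a match or its absence describes the letters in these windows alone.

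To see whether the rest of the pathway moved, 7 lists of related genes were followed (130 genes, of which 127 were found and 103 passed the filter). By limma, 0 of the 103 were higher and 0 lower at an adjusted p under 0.05, where 0.127% and 0.303% of all tested genes were called higher and lower. At an unadjusted p under 0.05, 14 were higher and 9 lower, beside 704 and 936 of all 10247 tested genes. In all, 22 list genes were higher and 13 lower in both dabigatran libraries than in any diet library, where 17.2% of all tested genes were higher and 17.2% lower in this way. Apart from Mtor, which was added after its values were seen, the genes named here had the lowest unadjusted p of their list. None passed the test.

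Core genes of mTORC1, Rheb, the Rag GTPases and S6 kinase (12 tested) had a median log2 difference of 0.09, with 0 called higher and 0 lower. Mtor, the kinase, averaged 6.66 ± 1.59 FPKM with dabigatran (SD, n = 2) and 6.33 ± 0.913 FPKM on the diet (SD, n = 3), a log2 difference of 0.06 ± 0.24 (SE). Lamtor3, part of the lysosomal anchor of mTORC1, had 7.86 and 14.5 FPKM in the dabigatran libraries and 4.49, 6.39 and 7.36 FPKM in the diet libraries (adjusted p = 0.274 by limma). Rps6kb2, an S6 kinase gene, had 5.38 and 5.58 FPKM with dabigatran and 8.92, 6.47 and 10.2 FPKM on the diet (limma adjusted p = 0.307). Rps6, the ribosomal protein that S6 kinase phosphorylates, overlapped between the groups, with a log2 difference of 0.30 ± 0.19 (SE).

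Other inhibitors and regulators of mTORC1 (15 tested) had a median of 0.07, with 0 called higher and 0 lower. The list held the TSC genes and the GATOR1 genes, and also Flcn and Fnip1. Fkbp8, a chaperone gene reported to bind mTOR, had 55.5 and 53.3 FPKM with dabigatran and 73.5, 65.2 and 96.4 FPKM on the diet (limma adjusted p = 0.283). Kptn and Itfg2, both of the KICSTOR complex, had log2 differences of -0.57 ± 0.29 and 0.56 ± 0.35 (SE), opposite in sign.

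Subunits and partners of the cap-binding complex eIF4F (16 tested) had a median of 0.25, and 0 were called higher and 0 lower. Larp1, which binds messages of the translation machinery downstream of mTORC1, had 27.4 and 29.0 FPKM with dabigatran and 17.5, 19.0 and 18.7 FPKM on the diet (limma adjusted p = 0.156). Eif4h, a helper of the helicase eIF4A, had 61.5 and 69.4 FPKM with dabigatran and 46.4, 44.0 and 50.4 FPKM on the diet (limma adjusted p = 0.234). Pdcd4, which inhibits eIF4A, had 25.6 and 28.1 FPKM with dabigatran and 35.3, 38.1 and 37.3 FPKM on the diet (limma adjusted p = 0.250). The groups of these 3 genes, named for their low p, did not overlap. In the whole list 6 of the 16 genes were higher and 1 lower without overlap, where 17.2% of all tested genes were higher and 17.2% lower in this way. The list of FOXO target genes, which includes Foxo1 and Foxo3, had the same counts, and the other lists had 1 to 3 higher and 1 to 4 lower. The lists were chosen with earlier results known, so these counts are a description.

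Target genes of ATF4, FOXO factors, p53, and TFEB and TFE3 were not called either. Target genes of glucocorticoids and of hypoxia, which also induce Ddit4, were not followed as lists. The ATF4 target genes (14 tested) had a median of 0.15. Atf4 itself had 49.8 and 45.1 FPKM with dabigatran and 22.6, 33.8 and 31.2 FPKM on the diet (limma adjusted p = 0.175), and Cth, a cysteine synthesis enzyme, 463 and 515 FPKM against 160, 343 and 170 FPKM on the diet (limma adjusted p = 0.134). Atf3, a stress-induced factor, went the other way, with a log2 difference of -1.15 ± 0.41 (SE). The FOXO target genes (16 tested, with Foxo1 and Foxo3 themselves among them) had a median of 0.30, the highest of the 7 lists. Their mean was 0.42, with Igfbp1 the largest log2 difference at 2.57. Igfbp1, an insulin-repressed binding protein, had 211 and 116 FPKM with dabigatran and 10.5, 105 and 15.6 FPKM on the diet, where diet replicate 1 was close to the dabigatran libraries (limma adjusted p = 0.203). Bnip3, a mitophagy receptor, had a log2 difference of 0.80 ± 0.25 (SE). Gabarapl1, an autophagy gene, had the lowest p of all list genes, with 117 and 119 FPKM with dabigatran and 218, 212 and 265 FPKM on the diet (limma adjusted p = 0.0674).

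The p53 target genes (14 tested, with Trp53 itself among them) had a median of 0.01. Ccng1, a cyclin and classic p53 target, had 8.56 and 9.34 FPKM with dabigatran and 17.1, 13.7 and 16.8 FPKM on the diet (limma adjusted p = 0.119), and Perp, a desmosome gene, a log2 difference of -0.42 ± 0.17 (SE). Cdkn1a, the cell cycle inhibitor p21, had a log2 difference of 1.36 ± 0.54 (SE), with overlapping groups; it was 0.53 without dabigatran replicate 2 (31.8 FPKM) and 2.19 without dabigatran replicate 1 (9.74 FPKM). TFEB, TFE3 and their lysosome and autophagy targets (16 tested) had a median of -0.10. Wipi1, an autophagy gene, had 13.2 and 22.9 FPKM with dabigatran and 6.62, 9.34 and 4.82 FPKM on the diet (limma adjusted p = 0.118), while Lamp1, a lysosome membrane protein, and Fnip2, a folliculin partner, had log2 differences of -0.55 ± 0.19 and -0.83 ± 0.30 (SE).

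**Figure D5:**
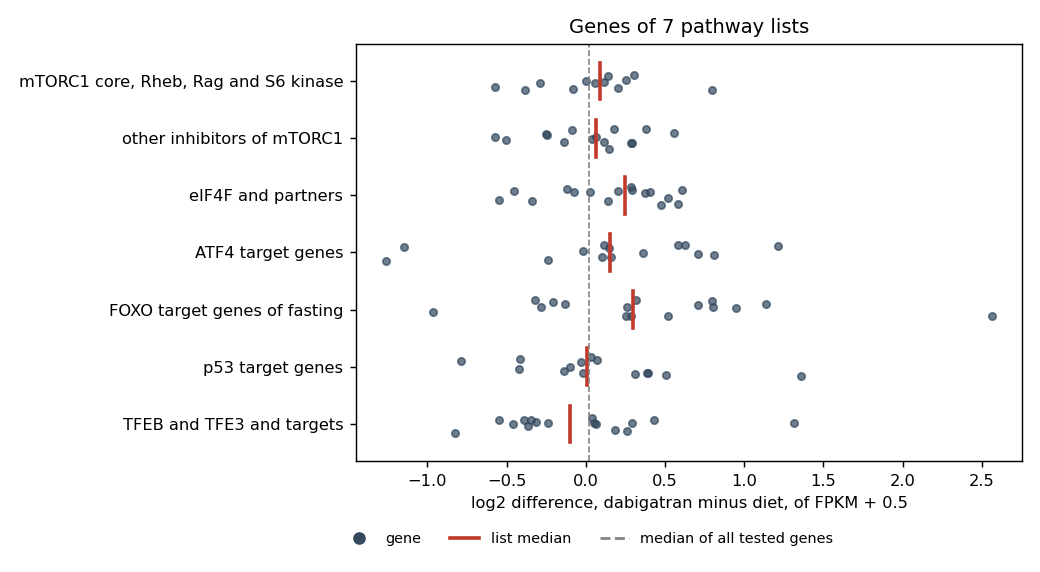
Log2 difference, dabigatran minus diet, of FPKM + 0.5 (horizontal axis) for the 103 tested genes of 7 lists (rows); points are genes, red lines are list medians and the dashed line is the median of all tested genes (0.02). The list medians lie between -0.10 and 0.30, and Igfbp1 is the point farthest right at 2.57.

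In bulk liver, fewer cells of a type and less RNA per cell cannot be told apart. Markers of other cell types were therefore summed. Of the 5 cholangiocyte markers, only 2 reached 1 FPKM in any library. Their sum came to 38.9 and 11.1 FPKM in dabigatran replicates 1 and 2, against 32.8 to 51.9 FPKM in the diet libraries. Dabigatran replicate 2, which had the highest Eif4ebp3, Ddit4 and Sesn1, was thus the lowest in this sum and the highest in hepatocyte markers. The same library was also the lowest in the Kupffer cell, sinusoidal endothelial and lymphocyte sums below, but not in the stellate cell and erythroid sums. The 6 Kupffer cell and macrophage markers came to 247 and 164 FPKM with dabigatran and to 171 to 221 FPKM on the diet, and the 5 sinusoidal endothelial markers to 83.9 and 81.6 FPKM and to 83.0 to 86.1 FPKM. The 5 stellate cell markers came to 106 and 117 FPKM with dabigatran and to 101 to 164 FPKM on the diet. The 4 erythroid markers came to 83.8 and 131 FPKM and to 83.5 to 139.9 FPKM. The 5 lymphocyte markers came to 2.48 and 0.457 FPKM and to 0.918 to 3.59 FPKM. Of these 5, only 2 reached 1 FPKM in any library, and Cd8a was at 0 in all. The 4 adipocyte markers were at 0 with dabigatran and at most 0.997 FPKM on the diet, with Lep and Plin1 at 0 throughout, and the 4 skeletal muscle markers were at 0 with dabigatran and at most 0.275 FPKM on the diet, with Ckm, Myh4 and Mb at 0 throughout. The part of cell composition in the values of dabigatran replicate 2 was not tested.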

How the data were processed

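Liver RNA of mice was sequenced from TruSeq libraries, per the labels' protocols. The deposited values are FPKM made by the authors, per the file headers. Per the submitters' processing notes the tools were TopHat2 2.0.4, Cuffdiff, CASAVA and R 2.15.1, with mm10 and GRCm38 as builds; their order, the annotation, strand use and library scaling were not stated. If the values were scaled to a library total, abundant genes (the top 10 held 20.7% to 24.5% of a library's sum) can lower the others.

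The labels' mice are the replicates. Genes with at least 1 FPKM in 3 of the 5 distinct libraries (10247) were fitted by limma 3.58.1 in R 4.3.3 on log2(FPKM + 0.5) with a variance trend and group as the sole term (two-sided, Benjamini-Hochberg, threshold 0.05); the fit was tested on simulated data first. SE is on the log2 scale and SD on the FPKM scale. Count tests were not used. The scaling factor of each library, used as its relative depth, was read from the steps of values under 0.3 FPKM. With it 81.0% of tested genes had whole fragments (relative tolerance 2e-05), but 1.0% of 1000 genes with shifted values did. A 0 may be an estimate that failed: 24 genes, 1 of them for a ribosomal protein, had over 20 FPKM in some library and 0 in another.

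The 9 genes and the 7 lists were chosen with earlier results of these data known. Of each list, called genes or else the 3 lowest p are named, with all 9 genes, Ankhd1 and the 5 genes closest to Eif4ebp3; Mtor was added after its values were seen. Positions and 50-base windows are from GENCODE M21 (GRCm38).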

Additional observations from a re-analysis of the deposited data

How the results depend on the processing

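Leaving out 1 library in turn moved the counts most: 0 to 95 genes were called higher and 0 to 199 lower (13 and 31 with all libraries), 0 to 2 of the 9 genes, and 0 to 3 list genes higher and 0 to 1 lower. Without diet replicate 1, 95 were higher and 199 lower. Without dabigatran replicate 1, 94 were higher and 181 lower, but a fit without either dabigatran library leaves 1, which is assumed to vary like the diet libraries that alone supply the spread; its calls compare that library with the diet group. Without dabigatran replicate 2 or diet replicate 2, 0 genes were called by limma in either direction (340 higher and 670 lower, and 496 higher and 611 lower, at an unadjusted p under 0.05), and without diet replicate 0, 0 were higher and 1 lower (442 and 620 unadjusted). The list genes called were Cth, Igfbp1, Pck1 and Gabarapl1 without diet replicate 1 (Pck1 is named after its values were seen). With dabigatran replicate 2 as the lone dabigatran library, Bnip3 and, of the 9 genes, Ddit4 and Eif4ebp3 passed the threshold, which says nothing of the spread between dabigatran mice.

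A pseudocount of 0.1 gave 6 genes higher and 17 lower, a filter of 5 FPKM gave 8 higher, and quantile normalization 16 lower. Without a filter on low values or without a variance trend, limma called 0 genes higher, 0 lower and 0 of the 9 genes (816 and 692 higher and 1117 and 870 lower unadjusted), with the Eif4ebp3 log2 difference at 4.35 in both. Over the leave-out fits that difference was 3.27 to 5.44. A replicate block on the label numbers, which sets diet replicate 0 aside, gave 5 higher and 8 lower and kept Eif4ebp3 called at 4.37. The numbers were not taken as pairs, since the labels state no factor besides the group. Correlations of deviations between same-numbered libraries were -0.04 and -0.03. With 2 dabigatran libraries the deviations mirror each other, so these correlations cannot decide whether the numbers are pairs.

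The log2 differences of Eif4ebp1, Sesn2 and Sesn3, near 0, changed sign: leaving out 1 library gave -0.40 to 0.28 for Eif4ebp1, -0.27 to 0.38 for Sesn2 and -0.38 to 0.38 for Sesn3, which was also -0.007 after quantile normalization. The causes were not tested. Ddit4 had 0 to 4 fragments per diet library.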
